A study of Mus musculus with 6 samples.

Results

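The genes described here are 10 genes of the interstitial matrix of the lung. They are 5 chains of the fibrillar collagens (Col1a1, Col1a2, Col3a1, Col5a1 and Col5a2) and 5 small leucine-rich proteoglycans (Dcn, Lum, Bgn, Fmod and Ogn). They were chosen by gene name: every probe set whose platform annotation carried 1 of these names was taken, which gave 26 of the 45101 probe sets and 10 of the 18193 named genes. A probe set is a group of short probes against 1 transcript that gives 1 signal value. Of the 26 probe sets, 25 passed the filter on dim signals and were tested, and the 1 left out was the second probe set of Dcn. The study compared Carm1 knockout lungs (3 arrays) with wild-type lungs (3 arrays) on Affymetrix Mouse Genome 430 2.0 arrays. Carm1 encodes an arginine methyltransferase that methylates histone H3 and coactivates nuclear receptors. The series states embryonic day 18.5 for knockout and wild-type lungs alike, and the knockout labels carry that stage, but the wild-type labels call the tissue neonatal. If those labels are right, genotype and age cannot be told apart in any difference given here. Strain, allele and litter were not stated, and nothing said that samples came from separate animals. Knockout array 2 and wild-type array 3 were male by their transcripts and the others female. Arrays of a genotype were thus not all repeats of 1 sample, but the spread behind the p-values may in part be technical.

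Fibrillar collagens are the rope-like proteins of connective tissue. Chains of collagen I and III, secreted by fibroblasts as procollagens, wind into triple helices that assemble side by side into banded fibrils, and collagen V lies within those fibrils and helps to start them and to limit their width. Small leucine-rich proteoglycans are curved proteins that sit on the fibril surface: decorin and biglycan carry chondroitin or dermatan sulphate chains, whereas lumican, fibromodulin and osteoglycin can carry keratan sulphate, and each can affect how thick and how regularly spaced the fibrils become. In the lung the fibrils lie mainly around airways, vessels and in the pleura and septa, and the same genes are strongly used in tendon, skin, cartilage sheath and muscle connective tissue.

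Some facts of the arrays bear on these genes. Carm1 itself had a signal of 395, 374 and 511 in knockout lungs, against 814, 678 and 865 in wild-type lungs, and where its probe set lies relative to the deletion is not known here. Median signals ran from 106 to 121 over the 6 arrays, and the correlation between arrays from 0.937 to 0.969. Lung markers were present on every array, with summed signals of 8 alveolar epithelial markers between 120617 and 143537 in knockout lungs and between 136365 and 179341 in wild-type lungs. Knockout array 3 stood apart in genes of cartilage. The summed signal of 11 cartilage markers was 929.9, 1730.0 and 13333 on knockout arrays 1 to 3, against 1083, 1089 and 1169 on wild-type arrays 1 to 3. Col2a1, the main collagen of cartilage, had signals of 15.003, 187 and 4537 in knockout lungs, against 75.3, 14.9 and 78.8 in wild-type lungs. A list of 10 skeletal muscle genes, chosen after the data were seen, had summed signals of 1313, 2235 and 45538 on knockout arrays 1 to 3, against 1236, 4435 and 590.5 on wild-type arrays 1 to 3. Transcripts of muscle and cartilage were thus highest on knockout array 3, and muscle transcripts were next highest on wild-type array 2. Bacterial control RNA, which can be added before labelling, was present on wild-type arrays 1 and 3 (median signals 609 and 379) and at 4.29 to 11.4 on the other 4 arrays. Knockout array 2 and wild-type array 3 were male by Xist and Y-linked transcripts and the other 4 arrays female.

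Start regions of 6 of the 10 genes were matched in a RefSeq table of assembly GRCm38.p6 (Bgn, Col1a2, Col3a1, Col5a1, Fmod and Ogn). Col1a1, Col5a2, Dcn and Lum were not matched. The 4 shown here belong to the collagen with the clearest difference among the matched genes, to a proteoglycan higher in knockout lungs, and to both proteoglycans that were not. Each holds 250 bases before and 50 after the annotated start on the plus strand. They are Col3a1 at chr1:45311288-45311587, Fmod at chr1:134037004-134037303, Bgn at chrX:73483351-73483650 and Ogn at chr13:49607765-49608064. Capitals mark matches, on either strand, to 1 of 3 short promoter motifs. The letters TATAAA were searched for the TATA box. The letters CCAAT were searched for the box of that name. The letters GGGCGG were searched for the GC box.
Col3a1: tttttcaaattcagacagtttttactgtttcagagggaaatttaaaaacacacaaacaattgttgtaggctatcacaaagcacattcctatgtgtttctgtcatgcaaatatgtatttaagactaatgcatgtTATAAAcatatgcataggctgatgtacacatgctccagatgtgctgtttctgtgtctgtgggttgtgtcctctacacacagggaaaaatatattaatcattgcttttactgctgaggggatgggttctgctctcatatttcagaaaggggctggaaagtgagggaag
Fmod: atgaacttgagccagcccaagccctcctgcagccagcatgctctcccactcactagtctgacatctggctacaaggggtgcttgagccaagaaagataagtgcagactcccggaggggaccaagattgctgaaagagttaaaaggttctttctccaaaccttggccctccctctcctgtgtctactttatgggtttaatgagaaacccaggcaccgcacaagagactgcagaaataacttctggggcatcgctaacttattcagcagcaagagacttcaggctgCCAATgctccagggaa
Bgn: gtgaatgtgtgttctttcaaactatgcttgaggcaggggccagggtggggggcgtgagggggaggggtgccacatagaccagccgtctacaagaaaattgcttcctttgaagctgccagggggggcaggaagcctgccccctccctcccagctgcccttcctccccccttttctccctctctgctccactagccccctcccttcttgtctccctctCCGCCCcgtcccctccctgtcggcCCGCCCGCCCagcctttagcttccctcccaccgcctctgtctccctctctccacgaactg
Ogn: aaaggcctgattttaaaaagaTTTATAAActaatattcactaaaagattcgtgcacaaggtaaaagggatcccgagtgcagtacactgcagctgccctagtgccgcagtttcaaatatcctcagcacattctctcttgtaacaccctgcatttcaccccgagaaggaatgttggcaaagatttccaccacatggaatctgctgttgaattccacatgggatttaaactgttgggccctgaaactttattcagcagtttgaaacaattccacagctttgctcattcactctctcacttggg

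The start regions differed in composition. The Col5a1 region was 75.0% G and C, Bgn 63.7%, Col1a2 61.0%, Fmod 51.0%, Ogn 42.3% and Col3a1 37.7%, against a median of 52.7% over the 32851 start regions of the table. Col3a1 held 1 match to the TATA letters, at base −117 from the start. Ogn held 2 that overlap on opposite strands, at −229 and −227, while 13.6% of all start regions held this motif. The CCAAT letters stood in Fmod (1, from base 35 after the start) and Col1a2 (2), against 37.4% of all start regions. The GC box letters stood in Bgn (3, of which 2 overlap), Col1a2 (2) and Col5a1 (2), against 35.7% of all start regions. These matches are a description of the letters and were not set against the differences in signal.

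In knockout lungs the matrix genes did not move as 1 group. Lumican and decorin had the largest differences, 5.36-fold and 2.62-fold higher than in wild-type lungs at their leading probe sets, the tested probe set of each gene with the highest mean. Against wild-type array 2 alone, the 1 wild-type array without bacterial control RNA, their log2 differences were 1.53 and 0.72, against 2.42 and 1.39 with all arrays, and that of Fmod was 0.010, against 0.58. Collagen I alpha 1 and fibromodulin were 1.46-fold and 1.497-fold higher and collagen III 1.24-fold. The other collagen chains differed by 1.11-fold to 1.13-fold, and biglycan and osteoglycin were slightly lower, at 0.913-fold and 0.912-fold. None of the 25 tested probe sets passed an adjusted p of 0.05 with limma, and 0.0296% of all 27022 tested probe sets did. At an unadjusted p under 0.05, 7 of the 25 were higher, or 28%, against 7.32% of all tested probe sets, and 0 were lower, against 6.31%. The 7 belonged to Col1a1 (1), Col3a1 (2), Dcn (1), Lum (1) and Fmod (2), and probe sets of 1 gene share a target and are not independent. With bacterial control RNA as a term, each member's difference equalled that of the knockouts against wild-type array 2 alone. The count is not given for that comparison, which rests on 1 wild-type array. The median log2 difference was 0.17 over the 25 probe sets, 0.15 over the 12 of collagens and 0.52 over the 13 of proteoglycans, against 0.019 over all tested probe sets.

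Among the collagens, Col1a1, the chain present in 2 copies in each molecule of collagen I, had a signal of 4898, 4630.2 and 6177 in knockout lungs, against 3109.8, 4449 and 3276 in wild-type lungs. All 3 knockout signals exceeded all 3 wild-type signals, by a small gap between knockout array 2 and wild-type array 2. The means were 5235 ± 827 in knockout lungs and 3612 ± 730.1 in wild-type lungs (SD, n = 3 each), a log2 difference of 0.54 (SE 0.16, 95% confidence interval 0.18 to 0.91, adjusted p = 0.215 with limma). The second probe set of Col1a1 differed by 0.13 on the log2 scale, and its groups overlapped. Col1a2, its partner chain, had 11948, 13161 and 15401 in knockout lungs, against 11546, 13049 and 11733 in wild-type lungs. Its groups overlapped, and the log2 difference of 0.15 had an interval from −0.11 to 0.41. A further, dim probe set of Col1a2 had the opposite sign, with 86.4, 78.9 and 110.5 in knockout lungs, against 111.4, 113.7 and 161.8 in wild-type lungs.

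Col3a1, the chain of collagen III, which is abundant in elastic organs and is laid down early, was higher in knockout lungs at both of its probe sets. Its leading probe set had 24465, 26356 and 32739 in knockout lungs, against 23954, 23367 and 19988 in wild-type lungs. Its other probe set had 4085, 3703 and 4687 in knockout lungs, against 2737, 3285 and 2305 in wild-type lungs. At both probe sets every knockout array lay above every wild-type array. The log2 differences were 0.31 (SE 0.13, adjusted p = 0.357) and 0.59 (SE 0.14, adjusted p = 0.160), both with limma. Over all tested probe sets, knockout arrays lay wholly above wild-type arrays in 10.7%, and wholly below in 9.36%. Of the 25 probe sets 4 lay wholly above, namely both of Col3a1 and the leading ones of Col1a1 and Lum, and 4 wholly below, namely all 3 of Bgn and the dim one of Col1a2.

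The collagen V chains were close to equal between the genotypes. Col5a1 had 1532, 1359 and 1901 in knockout lungs, against 1169, 1809.9 and 1381 in wild-type lungs, and the arrays of the genotypes were interleaved. Its log2 difference of 0.15 had an interval from −0.26 to 0.55, and its other probe sets differed by 0.060 and −0.035. Col5a2 had 4925, 5947 and 7049.9 in knockout lungs, against 5001, 5009 and 5639.9 in wild-type lungs. The difference was 0.18 at that probe set (interval −0.12 to 0.49) and −0.037 at the other, so the probe sets of Col5a2 did not share a sign. Knockout array 3 had the highest signal of all 5 collagens at their leading probe sets.

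**Figure D1:**
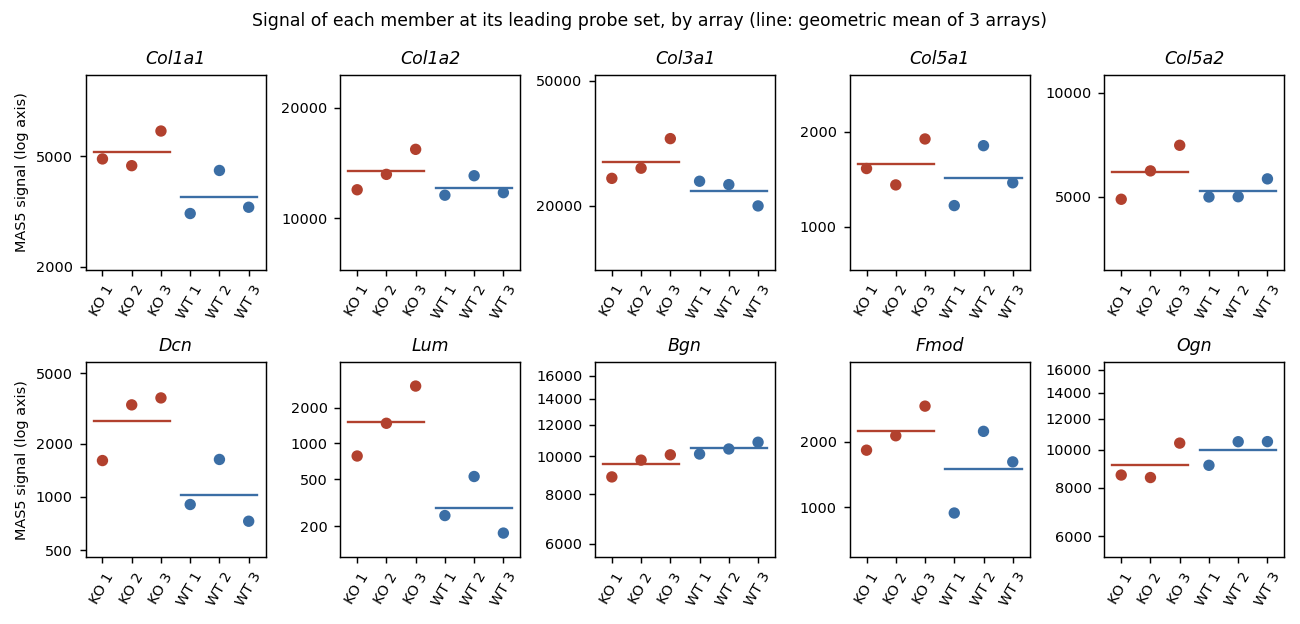
Signal (log axis, MAS5 units, a separate scale per gene) of the leading probe set of each of the 10 genes on each array, knockout (KO) in red left of wild type (WT) in blue, with lines at the geometric means of 3 arrays. Lum separates the genotypes, with knockout signals from 783 to 3041 against 176 to 526 in wild type, while Bgn lies slightly lower in knockout.

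Among the proteoglycans, Lum, which encodes lumican and in mice is needed for regular fibrils in cornea and skin, had signals of 783, 1478 and 3041 in knockout lungs, against 247, 526 and 176 in wild-type lungs. Each knockout array lay above each wild-type array, and the knockout arrays differed among themselves by 3.88-fold. The means were 1767 ± 1156 in knockout lungs and 316 ± 185 in wild-type lungs (SD, n = 3 each). The log2 difference was 2.42 (SE 0.51, interval 1.28 to 3.57, adjusted p = 0.130 with limma), and an exact permutation test (two-sided) gave p = 0.1, its lowest possible value with 3 arrays a group. Dcn, which encodes decorin, a binder of collagen I and of transforming growth factor beta, had 1604, 3312 and 3626 in knockout lungs, against 905, 1627 and 727 in wild-type lungs. Knockout array 1 and wild-type array 2 were level, so the groups overlapped at that point. The means were 2847 ± 1089 in knockout lungs and 1086 ± 476 in wild-type lungs, with a log2 difference of 1.39 (SE 0.35, interval 0.59 to 2.19, adjusted p = 0.168 with limma).

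Fmod, which encodes fibromodulin, a partner of lumican on tendon fibrils, was measured by 6 probe sets, 5 of them of a type whose probes may also match other transcripts. The leading one had 1832, 2135 and 2923 in knockout lungs, against 940.5, 2237 and 1618 in wild-type lungs. Wild-type array 1 was low and wild-type array 2 lay inside the knockout range, so the groups overlapped. All 6 probe sets were higher in knockout lungs, by 0.43 to 0.88 on the log2 scale, and all 6 had overlapping groups. The leading one differed by 0.58 (SE 0.29, interval −0.081 to 1.25, adjusted p = 0.427 with limma).

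Bgn and Ogn did not share these differences. Bgn, which encodes biglycan, the closest relative of decorin among these proteins, had 8858, 9772 and 10080.5 in knockout lungs, against 10127, 10429.9 and 10849.8 in wild-type lungs. At all 3 probe sets the knockout arrays lay just below the wild-type arrays, by −0.13, −0.15 and −0.19 on the log2 scale. The largest of these had an adjusted p of 0.393 with limma and an interval from −0.40 to 0.011. Ogn, which encodes osteoglycin, had 8609, 8484 and 10392 in knockout lungs, against 9118, 10477 and 10484 in wild-type lungs. Its probe sets differed by −0.13 and 0.0095, with overlapping groups, and the interval of the first ran from −0.39 to 0.12.

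**Figure D2:**
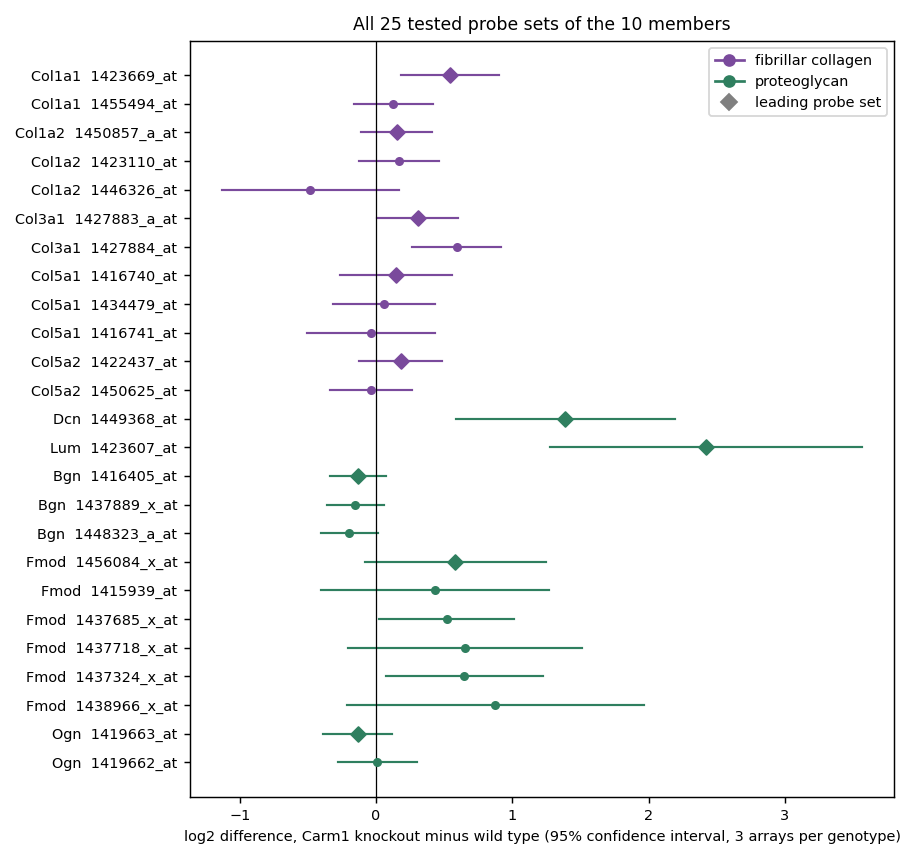
Log2 difference, knockout minus wild type, with the 95% confidence interval from limma for the 25 tested probe sets, collagens in purple and proteoglycans in green, diamonds for leading probe sets. Lum at 2.42 and Dcn at 1.39 stand to the right of all others, and the 3 probe sets of Bgn lie just left of 0.

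The spread between arrays of 1 genotype was unequal among these genes. The within-genotype SD of Lum was 0.90 on the log2 scale, wider than or equal to 97.4% of all tested probe sets, whose median SD was 0.23. Dcn had an SD of 0.62 (93.2%) and Fmod one of 0.51 (88.3%). The collagens lay in the middle or lower part of the range, from 0.15 for Col1a2 (25.5%) to 0.28 for Col5a1 (62.7%). Ogn had 0.14 (23.4%), and Bgn had 0.077, a tighter value than all but 4.81% of tested probe sets. The 3 genes with the largest differences, Lum, Dcn and Fmod, also had the widest spread within a genotype, and Bgn had the narrowest.

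The order of the arrays was shared by many of these genes. Knockout array 3 was the highest array in 17 of the 25 probe sets, or 68%, against 20.7% of all tested probe sets. Among proteoglycans these were 8 of 13 probe sets, all of Lum, Dcn and Fmod, and most were of Fmod alone. Probe sets of 1 gene are not independent. Bgn and Ogn were highest on a wild-type array at every probe set. Averaged over the 5 collagens, log2 signals relative to each gene's mean were −0.015, 0.038 and 0.38 on knockout arrays 1 to 3, against −0.24, 0.023 and −0.19 on wild-type arrays 1 to 3. Over the 5 proteoglycans they were −0.025, 0.44 and 0.83 on the knockout arrays, against −0.66, 0.026 and −0.60 on the wild-type arrays. In both sets knockout array 3 was highest and wild-type array 2 was level with knockout array 1. The muscle genes, too, were highest on knockout array 3 and, among wild-type arrays, on array 2, and the part of other tissue in the matrix signal was not tested.

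**Figure D3:**
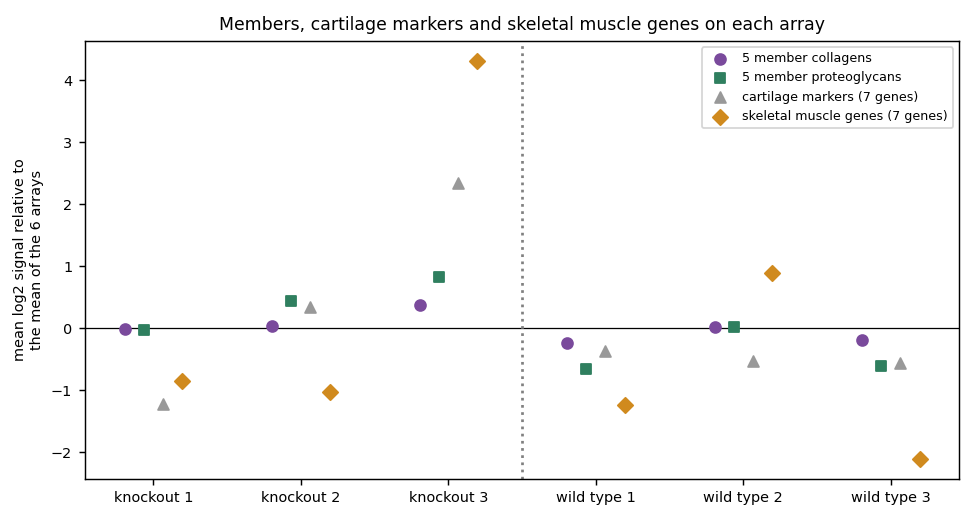
Mean log2 signal on each array relative to the mean of the 6 arrays, for the leading probe sets of the 5 collagens, the 5 proteoglycans, the 7 tested cartilage markers and the 7 tested skeletal muscle genes, the last chosen after the data were seen. Knockout array 3 is highest in all 4 sets, and wild-type array 2 is the highest wild-type array for muscle genes, collagens and proteoglycans but not for cartilage markers.

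The differences were then taken without these arrays. Without knockout array 3, Lum differed by 1.92, Dcn by 1.17, Col1a1 by 0.42 and Fmod by 0.39 on the log2 scale, while Col3a1 differed by 0.18, Col1a2 by 0.053, Col5a2 by 0.055 and Col5a1 by 0.014. Without both knockout array 3 and wild-type array 2, a choice made after the data were seen, Lum differed by 2.37, Dcn by 1.51, Fmod by 0.68 and Col1a1 by 0.58, against 2.42, 1.39, 0.58 and 0.54 with all 6 arrays. Of the other collagens, Col3a1 differed by 0.21, Col5a1 by 0.18, Col1a2 by 0.11 and Col5a2 by 0.027 in those 4 arrays, against 0.31, 0.15, 0.15 and 0.18 with all 6. Bgn and Ogn differed by −0.17 and −0.19. Without wild-type array 2, the wild-type arrays left were those with bacterial control RNA, which was low on every knockout array. Genotype and that RNA then cannot be told apart, here and for Lum without wild-type array 2 below. Against wild-type array 2 alone the knockouts differed by 1.53 for Lum, 0.72 for Dcn, 0.24 for Col3a1, 0.22 for Col1a1, 0.010 for Fmod and −0.19 for Col5a1. Lum without wild-type array 2 differed by 2.87, and its difference stayed between 1.92 and 2.90 whichever array was left out.

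**Figure D4:**
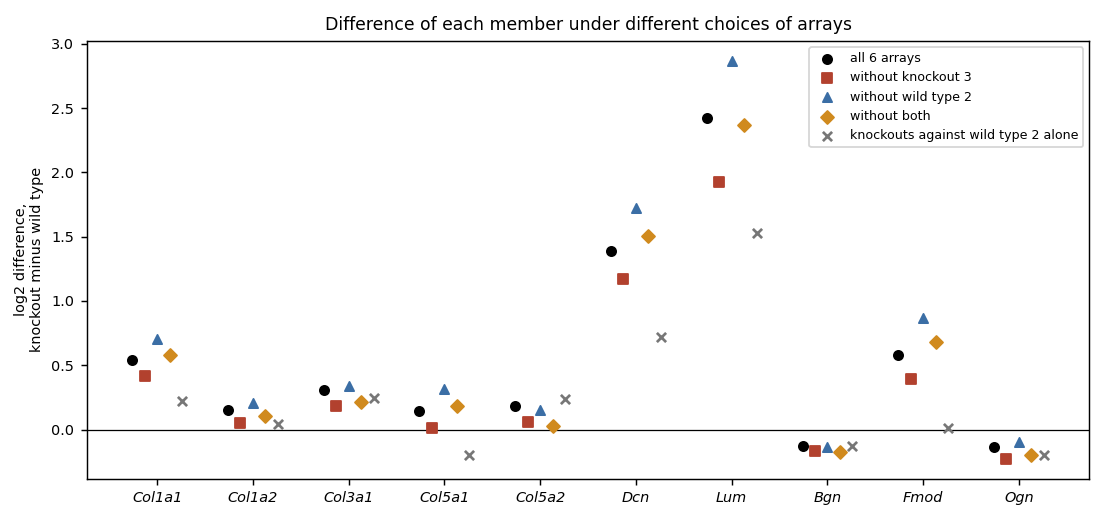
Log2 difference, knockout minus wild type, of the leading probe set of each gene with all 6 arrays, without knockout array 3, without wild-type array 2, without both, and for the 3 knockouts against wild-type array 2 alone. Lum and Dcn stay above 0.7 in all 5 choices, Fmod drops to 0.010 in the last, and Col5a1 turns to −0.19 there. In the choices without wild-type array 2, genotype cannot be told apart from bacterial control RNA.

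Several of these genes lie in clusters on the chromosomes, by gene order in the RefSeq table. Dcn and Lum are neighbours on chromosome 10, followed by the proteoglycan genes Kera and Epyc. Keratocan, a proteoglycan of the cornea, had signals of 4.31, 2.83 and 170 in knockout lungs, against 7.17, 1.72 and 3.05 in wild-type lungs. Epiphycan, of growth cartilage, had 35.0, 57.1 and 624 in knockout lungs, against 20.8, 13.4 and 8.999 in wild-type lungs. Both were below the filter and highest on knockout array 3, and for Epyc knockout arrays 1 and 2 also lay above every wild-type array. Ogn follows Ecm2, Aspn and Omd on chromosome 13. Aspn, which encodes asporin, had 2289.7, 2689 and 3433 in knockout lungs, against 2312, 2129 and 1789 in wild-type lungs (log2 0.42, adjusted p = 0.304 with limma). Omd, of bone and tooth matrix, had 57.8, 110.5 and 637 in knockout lungs, against 116, 56.8 and 46.1 in wild-type lungs, with overlapping groups and by far the highest signal on knockout array 3 (log2 1.25, adjusted p = 0.530 with limma). Fmod lies next to Prelp on chromosome 1. Prelp, a proteoglycan that anchors basement membranes to matrix, had 328, 363 and 369.5 in knockout lungs, against 141, 256 and 246 in wild-type lungs, with no overlap (log2 0.77, adjusted p = 0.243 with limma). Col3a1 and Col5a2 are neighbours on chromosome 1, with the values given above.

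The wider pathway was read from lists of other genes, 1 probe set per gene. Among 6 other proteoglycans of the family that were tested, 4 were higher and 2 lower, with a median log2 difference of 0.54, against 0.019 over all tested probe sets. Among 5 other fibrillar collagens tested, 4 were higher and 1 lower (median 0.36). Col11a1, a collagen of cartilage and of fibril cores, had 93.8, 128 and 1815 in knockout lungs, against 37.1, 93.6 and 77.8 in wild-type lungs (log2 2.11, adjusted p = 0.387 with limma), and Col2a1 differed by 2.39 (adjusted p = 0.582 with limma). Of the 5 other collagens 4 were highest on knockout array 3 (Col2a1, Col11a1, Col24a1 and Col27a1), and of the 6 other proteoglycans 4 (Prelp, Aspn, Omd and Chad). Chad, a leucine-rich protein of cartilage, had 1848 there, against 633 and 914 on the other knockout arrays and 494 to 828 in wild type. In neither list did a gene pass an adjusted p of 0.05.

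Genes that fold, cut and crosslink collagen went both ways. Of 17 tested genes of procollagen folding and modification 11 were higher and 6 lower, with a median of 0.048. Plod1, a lysyl hydroxylase of collagen, had a mean of 794 ± 73.1 in knockout lungs and 1097 ± 162 in wild-type lungs (SD, n = 3 each), with no overlap (log2 −0.46, adjusted p = 0.226 with limma). Plod3, a lysyl hydroxylase that also adds sugars, differed by −0.31. The collagen chaperone Serpinh1 had 9671 ± 466 in knockout lungs and 10684 ± 1034 in wild-type lungs. Of 7 tested genes of propeptide removal and crosslinking 4 were higher and 3 lower (median 0.024). Bmp1, the protease that removes the C-terminal propeptide of procollagen, differed by −0.31 (adjusted p = 0.321) and the lysyl oxidase relative Loxl3 by 0.66 (adjusted p = 0.267, both with limma), and neither had overlapping groups. Lox itself, the main crosslinking oxidase, had 10927 ± 1019.8 in knockout lungs and 10961 ± 693 in wild-type lungs.

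Collagens and linkers that attach to the fibrils were mixed. Of 13 tested genes 9 were higher and 4 lower (median 0.11). The strands of collagen VI, a beaded microfibril that binds decorin and biglycan, were on the lower side. Col6a2 had 8304, 7944 and 7506 in knockout lungs, against 11274, 12527 and 10604 in wild-type lungs. The knockout arrays lay well below the wild-type arrays (log2 −0.53, SE 0.097, adjusted p = 0.099999 with limma). Col6a1 differed by −0.27 with no overlap (adjusted p = 0.275) and Col6a3 by −0.13 with overlap (adjusted p = 0.665, both with limma). Of 17 tested genes that build the sugar chains of proteoglycans 9 were higher and 8 lower (median 0.036). Chst14, the sulphotransferase that shapes dermatan sulphate on decorin, had 766 ± 118 in knockout lungs and 530.3 ± 50.6 in wild-type lungs (log2 0.52, adjusted p = 0.214 with limma). Ust, a uronyl sulphotransferase of the same chains, had 323 ± 17.7 in knockout lungs and 446 ± 21.1 in wild-type lungs (log2 −0.47, adjusted p = 0.220 with limma).

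**Figure D5:**
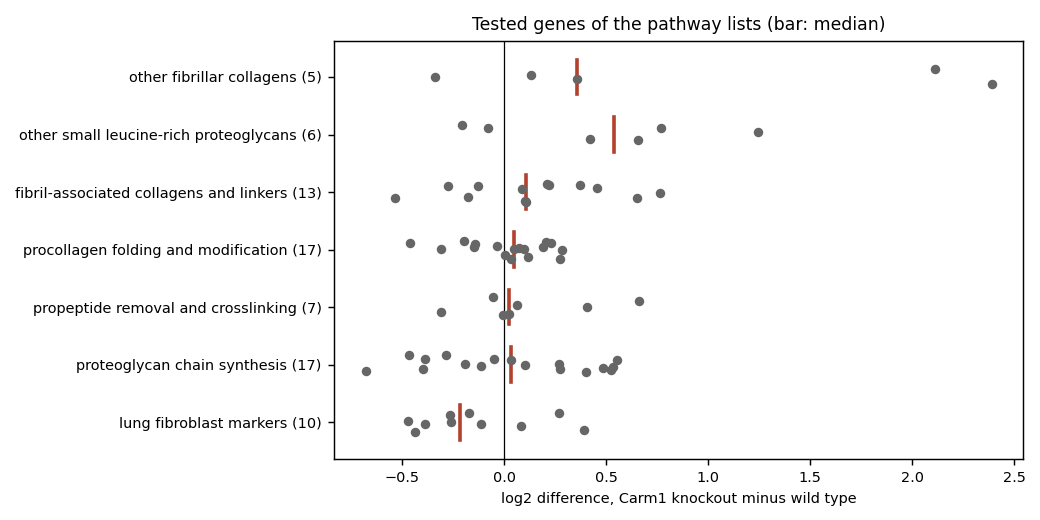
Log2 difference, knockout minus wild type, of each tested gene in 7 lists (grey points, number of genes in brackets) with the list's median as a red bar. Medians lie at 0.54 for other proteoglycans and at 0.048, 0.024 and 0.036 for the 3 enzyme lists, and at −0.22 for lung fibroblast markers.

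Markers of matrix-producing and other lung cells went both ways. Of 10 lung fibroblast markers 3 were higher and 7 lower, with a median of −0.22, and their summed signal was 45625 to 48884 in knockout lungs, against 52886 to 59039 in wild-type lungs. Limch1 had 7066 ± 646 in knockout lungs and 9814 ± 1203 in wild-type lungs (log2 −0.47, adjusted p = 0.160 with limma), and Npnt, a matrix ligand of integrins, differed by −0.27 (adjusted p = 0.237 with limma). Meox2, a homeobox gene of mesenchyme, was higher without overlap (log2 0.27, adjusted p = 0.328 with limma). Of 8 smooth muscle markers 6 were higher and 2 lower (median 0.25). Cnn1, the smooth muscle calponin, had 182, 389 and 132 in knockout lungs, against 112, 66.4 and 91.1 in wild-type lungs, and Actg2 differed by 0.40. Of 8 mesothelial markers, the cells of the pleura, 1 was higher and 7 lower (median −0.17), and Msln differed by −0.72 and Upk3b by −0.56. Of 8 alveolar epithelial markers 2 were higher and 6 lower (median −0.36), with Aqp5 at −1.72 and Rtkn2 at −0.56. Of 8 endothelial markers 1 was higher and 7 lower (median −0.40), with Car4 at −2.08 and Cldn5 at −0.45. Of 7 leukocyte markers 4 were higher and 3 lower (median 0.19), with the mast cell protease Cpa3 at 2.57 and Mcpt8 of basophils at 2.46. All 7 tested genes of cycling cells were higher (median 0.77), with Mcm5 at 0.90 and Pcna at 0.41. Of 7 tested cartilage markers 6 were higher and 1 lower (median 0.61), with Col9a1 at 2.66. In whole-lung RNA, fewer cells of a type and less RNA per cell cannot be told apart. None of these markers passed an adjusted p of 0.05, and their part in the differences of the matrix genes was not tested.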

How the data were processed

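Total RNA of mouse lung was converted to biotin-labelled cRNA and hybridised, per the labels' protocols, with 1 array per sample. The submitters' processing notes name MAS5 as the tool that produced the deposited intensity values, which are linear, with its version not given in the sources used here. The mean trimmed by 2% at each end was 500 on every array. No value was at 0, so log2 was taken without a pseudocount or further normalization. Probe sets were named by the platform annotation, updated by gene ID through a RefSeq table of GRCm38.p6 used for names, chromosomes and gene order: 34945 had 1 symbol, 932 several and 9160 none, and 64 were controls. Probe sets with a mean log2 signal above the 40th percentile (59.7) were tested with limma 3.58.1 (lmFit, eBayes with intensity trend, two-sided) in R 4.3.3, knockout minus wild type, adjusted by Benjamini and Hochberg over 27022 probe sets. The fit was tested on simulated data with independent noise for each probe set, so effects shared over an array were not covered. Fold values are ratios of geometric means, and the number of arrays limits their precision. The members and lists were chosen with earlier results of these data known. All members are described. Of each other list, genes past the adjusted threshold or else the 2 of smallest p were named, and further genes (the other matrix neighbours, Col6a3, Serpinh1, Lox, Chad, Col24a1, Col27a1, Meox2) were chosen after their values were seen, as were the muscle and bone lists. Alternatives were other normalizations, filters and variance models, terms for sex, spike-in RNA and replicate number, and each array left out.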

Additional observations from a re-analysis of the deposited data

Results flagged for a closer look

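The second probe set of Dcn lay below the filter and was not tested in the main fit. Its signals were 52.6, 64.8 and 55.6 in knockout lungs, against 2.67, 20.1 and 11.2 in wild-type lungs, so it stood above every wild-type array in all 3 knockouts. Other genes below the filter had a signal on knockout array 3 more than 3 times that of any wild-type array. Among collagens and proteoglycans these were Col11a2 (278 on that array), Kera (170) and Epyc (624). Among cartilage markers they were Matn1 (186), Cnmd (1029), Col9a2 (153) and Col9a3 (776). On knockout arrays 1 and 2 these 7 genes had signals of 79.1 or less.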

How the results depend on the processing

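No member passed the adjusted threshold under any alternative, and the adjusted p of Lum ran from 0.0998 to 0.65. The count of 8 tested probe sets past it became 0 without an intensity trend and 40 when variance was fitted robustly. A term for sex gave 4. Without knockout array 3 and wild-type array 2, a choice made after the data were seen, the count was also 4. With 1 array left out the count lay between 0 and 13. It was 0 without wild-type array 1 or 3 or knockout array 2 or 3. The 7 member probe sets higher at an unadjusted p under 0.05 became 4 without an intensity trend. They became 5 after centring on the median and 5 with sex as a term. Their number lay between 4 (without knockout array 2 or 3) and 10 with 1 array left out. That range does not cover the knockouts against wild-type array 2 alone. There the leading probe sets of the genes concerned differed by less. Their log2 differences were 1.53 for Lum, 0.72 for Dcn, 0.24 for Col3a1, 0.22 for Col1a1 and 0.010 for Fmod. The 0 lower ones became 2 after quantile normalization and 1 after centring on the median, and lay between 0 and 1 with 1 array left out. With the replicate block the counts were 0 past the adjusted threshold and 9 higher. The share of all tested probe sets at an unadjusted p under 0.05 is given for the main fit only. Member counts under the other settings therefore cannot be set against it. Correlations of deviations were −0.14, −0.38 and −0.0056 for same-numbered arrays, and no knockout array correlated best with its own number. With 3 arrays a group, these values cannot decide whether the numbers pair the samples. With spike-in RNA as a term, each member's difference equalled that against wild-type array 2 alone, so these settings are 1 comparison. Beyond the absence of members past the adjusted threshold, no count is given for that comparison, as it rests on 1 wild-type array. Signs of leading probe sets turned for Col1a2 and Col5a1. Col1a2 was −0.053 as the mean of its probe sets, which include the dim one. Col5a1 was −0.19 against wild-type array 2 alone. The cause was not tested. A lone wild-type array is assumed to vary like the knockouts.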

Other observations

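The genes whose signal followed the matrix genes most closely over the 6 arrays were named by Pearson correlation among 12810 genes, as a description over arrays that share their handling. The highest of so many correlations over 6 arrays can be high by chance, and no chance level was computed. For the mean profile of the 5 collagens they were Sytl4 (0.993), Klhl41 (0.993) and Scfd2 (0.992). Klhl41, a gene of skeletal muscle sarcomeres that also stands in the muscle list chosen after the data were seen, had 126, 129.6 and 873 in knockout lungs, against 42.6, 127 and 39.9 in wild-type lungs. For the 5 proteoglycans they were Nfic (0.996), 4933431E20Rik (0.993) and Mrm1 (0.988). Nfic, a transcription factor of the nuclear factor I family, had 749.5, 947 and 1099.9 in knockout lungs, against 564, 777 and 615 in wild-type lungs.

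Muscle genes on knockout array 3 reached 13629 for skeletal actin (Acta1), against 327 and 393 on the other knockout arrays and 182 to 1501 in wild-type lungs. The embryonic myosin Myh3 had 1645 there, against 54.0 and 34.1 on the other knockout arrays and 5.33 to 157 in wild-type lungs. Of bone genes, chosen after the data were seen, Sp7, the osteoblast transcription factor, had 55.5, 73.4 and 79.6 in knockout lungs. In wild-type lungs it had 61.6, 75.3 and 92.5, so knockout array 3 did not stand apart in it. These signals lay near the filter level of 59.7, so whether an array held bone RNA cannot be read from Sp7. Of the other bone genes, Bglap and Runx2 had no probe set of their own, and Ibsp, Mepe and Dmp1 lay below the filter.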
